A study of Zea mays with 48 samples.

Results

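Pulvini of maize plants that had been turned on their side for 2 min were compared with pulvini of plants that stayed vertical, across all probe sets of the array and separately in total and in polysomal RNA. The 16 arrays were chosen by their labels alone, and are 16 of the 48 arrays of the series: 4 arrays at 2 min and 4 of vertical pulvini in total RNA, and the same in polysomal RNA. All plants were of the inbred strain B73, about 6 weeks old, grown in soil with 2 plants to a pot, and carried no transgene. Reoriented plants were turned by 90 degrees with their pots, and the second pulvinus above the soil was split into an upper side, which the labels call slow in elongation, and a lower side, called fast. Vertical pulvini were split into a left and a right side. Each side stands for a pool of 6 plants, and the experiment was done in 2 growing seasons, here called repetition 1 and repetition 2. Frozen powder of each side was divided for total RNA and for polysomes, so the total and the polysomal array of a side share their plants. In the 2 min comparison the remaining 32 arrays, at 5 to 60 min, served to estimate the spread and to choose the probe sets tested. They also give the later time points and pool distances described further below.

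The grass pulvinus is a disc-like swelling of the stem near the leaf base. In an upright stem its cells have stopped growing. When the stem is laid flat, starch-filled plastids in the pulvinus sediment, signals such as calcium, inositol phosphates and auxin change across the organ, and the lower side resumes elongation and bends the stem upward. Messenger RNA found on polysomes is being translated, so comparing it with total RNA shows whether a change in the amount of a transcript is also met in the part that is loaded on ribosomes. Visible bending takes far longer than the first minutes, and this comparison asks which transcripts already differ at the earliest harvest.

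Signals were intensities on a scale common to the arrays: the 16 arrays had medians between 174.3 and 216.9, and between 15.9% and 22.4% of their probe sets lay below 16. The sides of 1 pool correlated between 0.9855 and 0.9919 in these 16 arrays. The sides of the polysomal pool at 5 min, repetition 1, correlated less, at 0.9028, and are not among them. That value does not say which side departs. Tissue identity could be checked only in part, since no defining marker of the pulvinus is given. Photosynthesis genes, 14 probe sets, summed to 22370 to 26760 at 2 min and 23610 to 26100 in vertical pulvini in total RNA. Of the endosperm zeins, 13 of 14 probe sets had a mean signal under 16, gz27 being the exception, as had all 5 pollen probe sets. In bulk tissue of this kind, fewer cells of a type and less RNA per cell cannot be told apart. The labels describe the controls only as kept vertical, so the effect of moving the pot and that of the new orientation cannot be told apart either. Each group has 2 independent plant pools, and that number limits the precision of every value below.

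Only 1 transcript rose at 2 min in total RNA by the test across all probe sets. It was dbf1 (LOC542569), which encodes an AP2/ERF transcription factor that binds the drought response element, and it was 1.44 higher on the log2 scale in reoriented than in vertical pulvini (limma, SE 0.17, adjusted p = 0.00276). Among the 10527 probe sets tested, 1 passed the adjusted threshold of 0.05, which is 0.00950% of them. In polysomal RNA, 0 of the 10527 passed it by limma, 0% of them, although 767 had an unadjusted p under 0.05. At the same unadjusted threshold, total RNA had 526 probe sets higher and 371 lower at 2 min, 5.00% and 3.52% of those tested. Polysomal RNA had 466 higher and 301 lower, 4.43% and 2.86%.

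The separation of dbf1 is visible in the single arrays. In total RNA at 2 min its signal was 1291 in the upper and 1092 in the lower side in repetition 1, and 1769 and 1770 in repetition 2. In vertical pulvini it was 616 in the left and 540 in the right side in repetition 1, and 486 and 462 in repetition 2. Every reoriented side was thus brighter than every vertical side, and both seasons showed the difference, by 1.02 in repetition 1 and by 1.87 in repetition 2 on the log2 scale. In polysomal RNA the 2 min signals were 1052, 762, 1432 and 1549 in the same order, and the vertical signals 383, 365, 359 and 332. The groups did not overlap there either. The polysomal difference was 1.64 (limma, SE 0.26) with an adjusted p of 0.134, so it did not pass. Lower minus upper for dbf1 was -0.12 in total RNA (unadjusted p = 0.355) and -0.17 in polysomal RNA (unadjusted p = 0.498). The call in total RNA was lost when only the 8 arrays of the comparison were fitted (limma, adjusted p = 0.299). It was also lost when pool means replaced sides (limma, adjusted p = 0.469). Both fits leave fewer values to estimate the spread, and the cause of the loss was not tested.

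**Figure D1:**
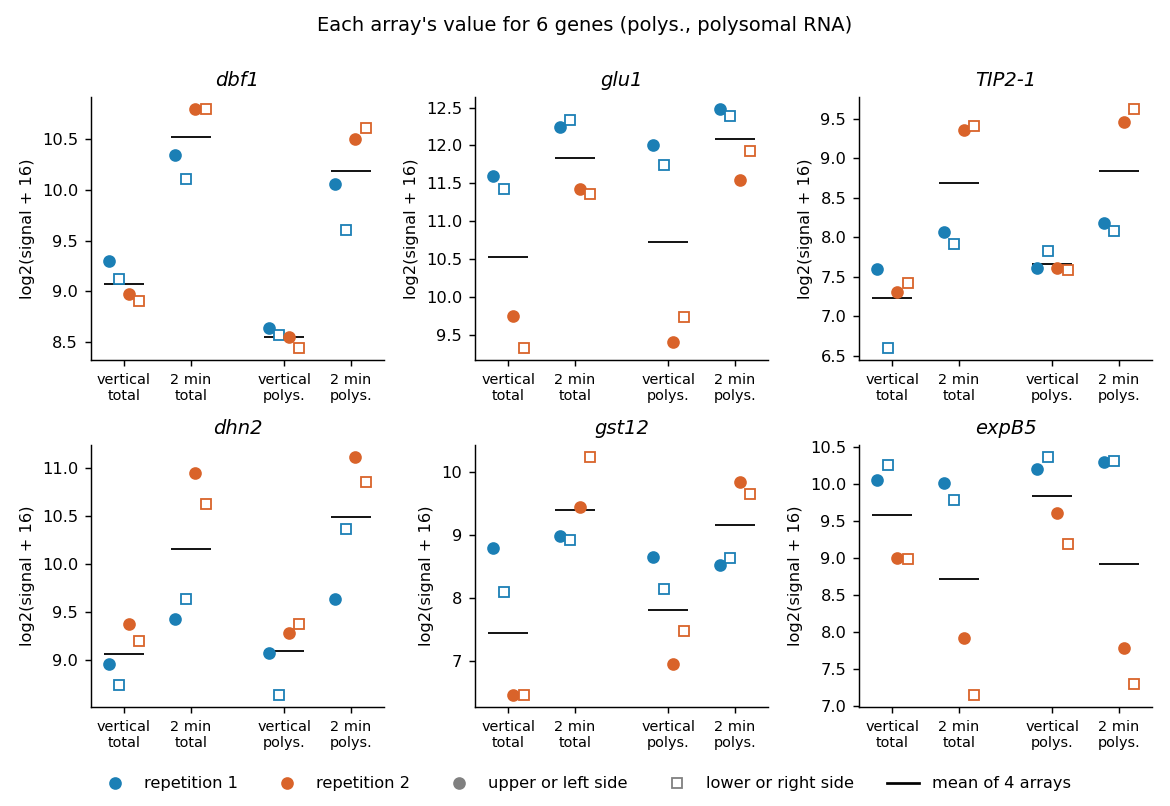
Values of 6 genes on each of the 16 arrays, as log2(signal + 16), for vertical and reoriented pulvini in total and polysomal (polys.) RNA. Points are single arrays coloured by repetition, filled for upper or left and open for lower or right sides, and bars are means of 4 arrays. The dbf1 arrays at 2 min lie above all vertical arrays in both RNAs, while expB5 is lower at 2 min mainly in repetition 2.

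Other members of the transcription factor list did not pass the test. The list held 18 tested probe sets of 16 genes from the AP2/ERF, bZIP, MYB, NAC and heat shock factor families. Its median change was 0.03 in total and 0.14 in polysomal RNA, beside 0.00 and 0.02 over all probe sets. The related gene dbf2, which binds the same element, differed by -0.05 (SE 0.37) in total and by 0.23 (SE 0.20) in polysomal RNA. DBP1a, also known as DREB2A, differed by 0.04 (SE 0.20) in total RNA and by 0.43 (SE 0.13) in polysomal RNA, with an adjusted p of 0.492 in the latter. GBF1, a bZIP factor that binds G-box elements, showed nearly all of its polysomal difference in repetition 2, at 2.22 against 0.10 in repetition 1. The MYB gene rs2 (rough sheath2), a repressor of knotted-type homeobox genes, was 0.90 lower in total RNA and 0.95 lower in polysomal RNA, with adjusted p of 0.496 and 0.492.

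After dbf1, glu1 had the smallest p in total RNA, and neither it nor any other gene described from here on, other than dbf1 itself, passed the adjusted threshold at 2 min. glu1 encodes a beta-glucosidase that releases defence aglycones and has been reported to free cytokinins from their glucosides. Its total RNA signal at 2 min was 4867 and 5118 in the upper and lower side of repetition 1, and 2725 and 2604 in repetition 2. The vertical values were 3086 and 2749 in repetition 1 but 846 and 625 in repetition 2. The seasons thus differed so much in level that the groups overlapped, while within each season both 2 min sides were above both vertical sides. The difference was 1.31 in total RNA (limma, SE 0.25, adjusted p = 0.318) and 1.36 in polysomal RNA (SE 0.33, adjusted p = 0.372).

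gst12, a glutathione S-transferase, differed by 1.95 in total RNA (SE 0.50, adjusted p = 0.378), but very unequally between seasons. Its 2 min signals were 488 and 466 in repetition 1 and 681 and 1193 in repetition 2, against vertical signals of 426 and 257 in repetition 1 and 71.3 and 71.8 in repetition 2. The difference was 0.51 in repetition 1 and 3.39 in repetition 2, and the vertical level was the lower in the second season. In polysomal RNA gst12 differed by 1.36 (SE 0.44, adjusted p = 0.494). acco20, which encodes an ACC oxidase of ethylene synthesis, differed by 1.01 in total RNA (SE 0.28, adjusted p = 0.378) and by 0.78 in polysomal RNA (SE 0.28, adjusted p = 0.512). Its 2 seasons were more alike in total RNA, at 0.85 and 1.17.

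3 water channel genes stood higher at 2 min without passing the test. TIP2-1, a tonoplast aquaporin, had total RNA signals of 253 and 226 in repetition 1 and 643 and 663 in repetition 2 at 2 min. In vertical pulvini the signals were 179 and 81.1, and 142 and 156. All 4 reoriented arrays were above all 4 vertical arrays, in polysomal RNA as well, and the difference was 1.45 in total (SE 0.38, adjusted p = 0.378) and 1.18 in polysomal RNA (SE 0.35, adjusted p = 0.492). The plasma membrane aquaporin pip2-5 was chosen after its values were seen, because its groups did not overlap in either RNA. That trait is therefore not a separate result. pip2-5 differed by 1.22 in total and 1.05 in polysomal RNA. Its total RNA signals were 158 to 234 at 2 min against 60.4 to 92.4 in vertical pulvini. tip2, also listed as TIP1-2, differed by 1.28 in total and 1.77 in polysomal RNA, but by only 0.19 and 0.11 in repetition 1. The aquaporin list as a whole did not go this way: of its 26 tested probe sets 9 were higher and 17 lower in total RNA, with a median of -0.06. Its seasons differed in direction: 20 were lower in repetition 1 and 16 higher in repetition 2 in total RNA, with medians of -0.23 and 0.07. In polysomal RNA 16 were lower in repetition 1 and 14 higher in repetition 2. TIP4-4 was 0.74 lower in total (SE 0.25) and 0.68 lower in polysomal RNA (SE 0.20), with adjusted p of 0.456 and 0.472.

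Genes of the abscisic acid and drought list had the highest list median. Of its 8 tested probe sets, which cover 5 genes, 7 were higher at 2 min in both RNAs, 0 passed the adjusted threshold, and the medians were 0.80 and 0.99. Unadjusted p under 0.05 was reached by 3 in total and 4 in polysomal RNA, all higher, beside 5.00% and 4.43% of all probe sets. These were probe sets of the dehydrins, hydrophilic proteins that accumulate when cells lose water. The dhn2 probe set with the largest difference read 670 and 778 in repetition 1 and 1965 and 1573 in repetition 2 at 2 min in total RNA, against 478, 410, 648 and 569 in vertical pulvini. Its groups did not overlap in either RNA, and the difference was 1.10 in total (SE 0.48, adjusted p = 0.552) and 1.40 in polysomal RNA (SE 0.40, adjusted p = 0.470). The other 2 dhn2 probe sets gave 0.85 and 0.93 in total RNA, although sets with shared probes are not independent. The seasons disagreed over dhn1: it was 0.97 lower at 2 min in repetition 1 and 4.11 higher in repetition 2 in total RNA, and 0.96 lower and 4.64 higher in polysomal RNA. The split was not confined to dhn1. In repetition 1, 5 of the 8 probe sets were lower in each RNA, and only 1 of these was a dehydrin set. In repetition 2, 1 of the 8 was lower in each RNA. The list median was -0.20 in repetition 1 and 1.13 in repetition 2 in total RNA.

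LOC542763, which carries no name in the tables used, was lower by nearly the same amount in both seasons, at -0.51 and -0.55 in total RNA on the log2 scale, and did not pass the adjusted threshold.

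2 growth genes were lower without passing the test. The beta-expansin gene expB5, whose products loosen cell walls, differed by -0.86 in total RNA (SE 0.27, adjusted p = 0.419) and by -0.92 in polysomal RNA (SE 0.35, adjusted p = 0.558). Repetition 1 contributed little: its 2 min signals were 1016 and 868 against 1050 and 1206, while repetition 2 had 226 and 126 against 497 and 493. The gibberellin synthesis gene dwarf3, which encodes ent-kaurenoic acid oxidase and was chosen after its values were seen, had total RNA signals of 967, 742, 886 and 618 at 2 min and 1271, 1131, 1470 and 1746 in vertical pulvini. It was chosen because its groups did not overlap in either RNA, so that trait is not a separate result. dwarf3 differed by -0.80 in total (limma, SE 0.33, adjusted p = 0.530) and by -0.75 in polysomal RNA (SE 0.27, adjusted p = 0.533). gar2 differed by -0.79 and -0.95, and its groups did not overlap in either RNA.

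Tubulin genes, whose products form the microtubules that guide cellulose deposition, almost all had lower values at 2 min. Of 18 tested probe sets covering 12 genes, 17 were lower in total RNA and 18 in polysomal RNA, and 0 passed the adjusted threshold. The medians were small, -0.12 and -0.29. With quantile normalization 16 and 18 were lower. Unadjusted p under 0.05 was reached by 5 probe sets in total and 6 in polysomal RNA, all lower, beside 3.52% and 2.86% of all probe sets. Repetition 1 showed less of it: 11 of 18 were lower there in total RNA and 14 in polysomal RNA, against 16 and 18 in repetition 2. The polysomal median was -0.09 in repetition 1 and -0.43 in repetition 2, while the medians in total RNA were closer, at -0.16 and -0.22. tub4 had a difference of -0.42 in total RNA (SE 0.15, adjusted p = 0.491) and -0.57 in polysomal RNA (SE 0.12, adjusted p = 0.294). Its polysomal signals were 3961 and 3991 in repetition 1 and 2746 and 2747 in repetition 2 at 2 min, against 4606 and 4486, and 5450 and 5202. These groups did not overlap, yet in total RNA repetition 1 showed 0.01 and repetition 2 showed -0.85. tua6 was -0.36 and tua5 -0.58 in total RNA, with adjusted p of 0.416 and 0.419. Tubulin sequences are much alike, so probe sets may share targets, and the 18 are not 18 separate measurements.

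Within the cell wall list the members differed in direction. The 13 probe sets of cellulose synthase genes, a subset chosen after their values were seen, were all lower in both RNAs, also after quantile normalization, with medians of -0.25 and -0.19 and 0 passing the adjusted threshold. In repetition 1, however, 7 of 13 were lower in total RNA and 5 of 13 in polysomal RNA. The 14 expansin probe sets split into 7 higher and 7 lower in total RNA. Among them expA4 was higher by 0.95 (SE 0.43) in total RNA for 1 of its 3 probe sets, and by 0.61 and 0.25 for the others. The probe set at 0.95 differed mostly in repetition 2. Its signals there were 149 and 135 at 2 min against 36.0 and 30.0 in vertical pulvini. In repetition 1 they were 144 and 141 against 109 and 131. Apart from expansins, the actin-binding proteins and kinesins were 7 of 8 lower in each RNA, with medians of -0.07 and -0.08.

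Chromatin genes mostly had slightly higher values at 2 min. Of 52 probe sets for histones, nucleosome assembly factors, histone deacetylases and other chromatin proteins, 39 were higher in total and 43 in polysomal RNA, with medians of 0.11 and 0.13, beside 50.3% and 54.4% of all probe sets higher. After quantile normalization 38 and 40 were higher. None passed the adjusted threshold, and 10 in total RNA and 3 in polysomal RNA were higher at an unadjusted p under 0.05, beside 5.00% and 4.43% of all probe sets, so that the polysomal count is near the background. nfc102, a WD-repeat chromatin assembly protein, gave 0.31 (SE 0.12) and 0.28 (SE 0.11) in total RNA on 2 of its probe sets, with adjusted p of 0.496 and 0.499. Its other tested probe set averaged 11.04 at 2 min and 10.89 in vertical pulvini on the log2 scale in total RNA, with overlapping arrays. In polysomal RNA the arrays overlapped for each of its probe sets. The DNA methyltransferase gene met2 went the other way, with -0.45 in total (SE 0.17) and -0.53 in polysomal RNA (SE 0.18), and arrays that did not overlap in either. Once more the seasons differed: the list median was 0.04 in repetition 1 and 0.20 in repetition 2 in total RNA, and -0.03 and 0.25 in polysomal RNA.

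No gene of the calcium and lipid signalling lists passed the test. Among 17 probe sets for calmodulins, calcium-dependent kinases, calreticulins and annexins, 0 reached an unadjusted p under 0.05 in either RNA. Of all probe sets, 5.00% were higher and 3.52% lower at that threshold in total RNA, and 4.43% and 2.86% in polysomal RNA. A count of 0 among 17 is near that background. The medians were -0.03 and 0.02. The differences ran from -0.34 to 0.25 in total RNA and from -0.50 to 0.26 in polysomal RNA. For the calmodulin gene CaM2 the difference was -0.03 (SE 0.11) in total RNA, and for the calreticulin gene crt2 it was -0.08 (SE 0.18) on 1 probe set and -0.03 (SE 0.16) on the other. Of the calcium-dependent kinase genes, CDPK1 had 0.25 (SE 0.27), CDPK2 had -0.14 (SE 0.12) and MCK1 had 0.03 (SE 0.12) in total RNA. Some of these values average seasons of opposite sign: CDPK1 had 0.81 in repetition 1 and -0.31 in repetition 2, and the second crt2 probe set had 0.31 and -0.38. The 5 probe sets for phospholipase and inositol phosphate enzymes lay between -0.10 and 0.19 in total RNA and between -0.07 and 0.24 in polysomal RNA. Of these, the arrays did not overlap for PLC in polysomal RNA, where it was 0.23 higher (limma, SE 0.11, adjusted p = 0.687). Nor did they for PIS in total RNA, where it was 0.10 lower (SE 0.10, adjusted p = 0.839). Over all probe sets, 3.57% were higher and 3.17% lower without overlap in total RNA, and 2.44% and 2.05% in polysomal RNA. A count of 1 among 5 in each RNA is too small to set apart from that background.

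Sugar-cleaving invertases ran in opposite directions in the seasons. The cell wall invertase gene incw1 was 1.17 higher at 2 min in repetition 1 and 0.71 lower in repetition 2 in total RNA, and the vacuolar invertase gene ivr2 was 1.23 higher and 0.81 lower. Their fitted differences were 0.23 (SE 0.33) and 0.21 (SE 0.65). SAG, named in the tables only by that symbol, differed by 0.46 (SE 0.31) in total and by 0.51 (SE 0.26) in polysomal RNA, with adjusted p of 0.741 and 0.705. aux1, named for the auxin influx carriers, differed by 1.37 and 1.52, but by 0.04 and 0.08 in repetition 1.

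**Figure D2:**
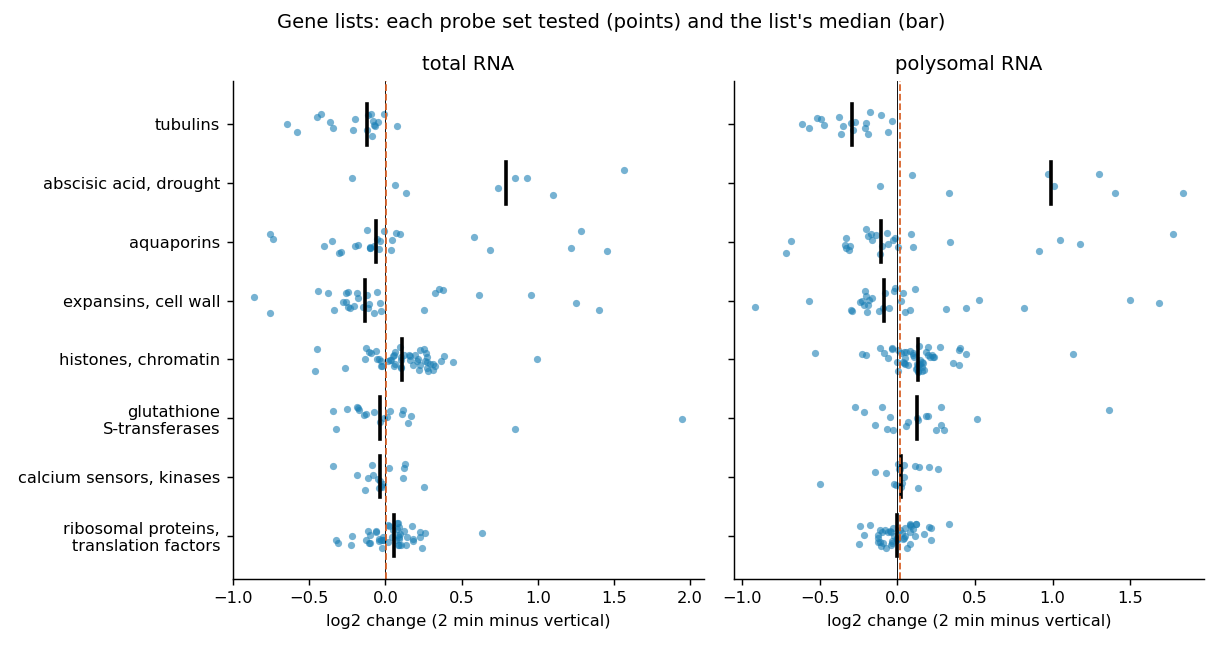
Log2 change at 2 min against vertical pulvini for each tested probe set (points) of 8 gene lists in total RNA (left) and polysomal RNA (right). Black bars are list medians and the dashed line is the median of all 10527 probe sets. Tubulin points lie to the left of 0 with 1 exception in total RNA, and abscisic acid and drought genes reach 1.57 and 1.84.

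Other named genes had smaller differences or probe sets that disagreed. CPN60II, a chaperonin gene, differed by 0.57 in total RNA (SE 0.13, adjusted p = 0.378) and by 0.29 in polysomal RNA (SE 0.19). In the heat shock protein and chaperonin list 12 of 13 probe sets were higher in total RNA and 10 in polysomal RNA, with medians of 0.08 and 0.06, beside 50.3% and 54.4% of all probe sets higher. The seasons did not share this direction: 10 of 13 were higher in repetition 1 but 8 lower in repetition 2 in total RNA, and 11 were higher in repetition 1 but 9 lower in repetition 2 in polysomal RNA. The porin gene por1 had probe sets of opposite sign, -0.75 and 0.88 in total RNA and -0.71 and 0.69 in polysomal RNA, so no direction is given for it. The coatomer subunit gene copz2 differed by -0.34 in total RNA (SE 0.14) and by -0.50 in polysomal RNA (SE 0.14, adjusted p = 0.470). LOC778431, unnamed in the tables used, differed by 0.45 and 0.55, and the nucleoredoxin gene nrx1 by 0.29 and 0.46. The prohibitin gene phb1 differed by 0.38 in total RNA (SE 0.12, adjusted p = 0.419) on its brighter probe set and by -0.16 on the other. Of the probe sets without a listed gene, Zm.18290.1.S1_at differed by 2.00 in total and 2.09 in polysomal RNA, with signals of 297 to 936 at 2 min against 98.7 to 151 in vertical pulvini in total RNA. Zm.16838.2.A1_a_at differed by 1.65 and 1.68, and its seasons were close, at 1.45 and 1.84 in total RNA. Its adjusted p of 0.318 became 0.0471 when only the 8 arrays of the comparison were fitted.

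The changes in total and polysomal RNA ran together across probe sets. Over the 10527 probe sets Pearson's r between them was 0.76 and Spearman's rho 0.63, and 72.3% had the same sign. All 101 probe sets that differed by more than 1 in total RNA had the same sign in polysomal RNA, and 76 of them exceeded 1 there too. These are correlations across probe sets, which are not independent, and both RNAs came from the same frozen powders, so the points share their plants. Of the 897 probe sets with an unadjusted p under 0.05 in total RNA, 343 also had one in polysomal RNA with the same sign, which is 38.2% of the list for total and 44.7% of the list for polysomal RNA, and 0 had opposite signs. Arrays at 2 min and vertical did not overlap for 376 higher and 334 lower probe sets in total RNA (3.57% and 3.17%), and for 257 and 216 in polysomal RNA (2.44% and 2.05%). In both RNAs at once, 68 were higher and 60 lower without overlap, 0.646% and 0.570% of those tested, and 1 went in opposite directions. Of these 128 probe sets 12 have a listed gene, beside 920 of all 10527 tested: dbf1, TIP2-1, pip2-5, rpp2a-3, GIF3, rpot1 and 2 sets of dhn2 with higher values, and gar2, dwarf3, met2 and emp2 with lower ones.

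**Figure D3:**
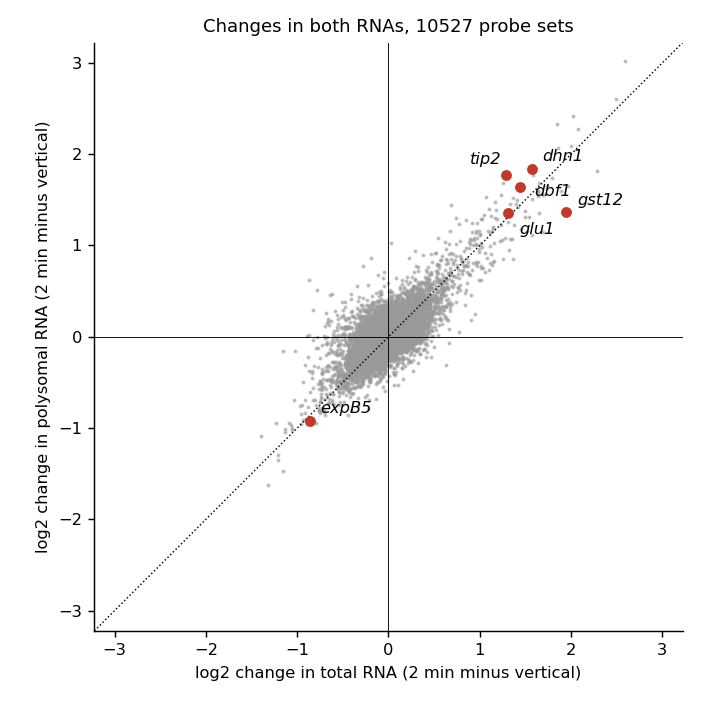
Log2 change at 2 min in total RNA (horizontal) and polysomal RNA (vertical) for 10527 probe sets, with the dotted line of equal change. The cloud lies along the line (r = 0.76), and dbf1, at 1.44 and 1.64, is among several genes with like changes in both RNAs.

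No probe set passed the test for a difference between the RNAs. The fit to polysomal minus total values of the same powders called 0 of 10527 probe sets by limma, 0% of them, with 329 at an unadjusted p under 0.05 (3.13%), and its smallest adjusted p was 1.00. For dbf1 the polysomal change exceeded the total change by 0.20 (SE 0.18, adjusted p = 1.00). The smallest p values among listed genes belonged to PDIL5-1, a protein disulfide isomerase, at -0.43 (SE 0.16), the plastid dicarboxylate transporter gene pDCT2 at -0.36 (SE 0.14), LOC541975 at 0.36 (SE 0.15), MRP2 at 0.33 (SE 0.13) and hp2 at -0.31 (SE 0.13). All 5 had an adjusted p of 1.00.

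Agreement between the seasons was far weaker than agreement between the RNAs. Across probe sets the change of repetition 1 correlated with that of repetition 2 at r = 0.07 in total RNA and 0.05 in polysomal RNA, and 52.2% and 50.7% had the same sign. Within a season the RNAs agreed, at r = 0.47 in repetition 1 and 0.83 in repetition 2. Across seasons and RNAs together, r was 0.09 between total RNA of repetition 1 and polysomal RNA of repetition 2, and 0.11 for the reverse pairing. The second season also had wider changes: 309 probe sets exceeded 1 in total RNA, against 122 in the first, and only 11 did so in both with the same sign. In polysomal RNA the numbers were 333, 81 and 9. Distance from the other pools of a season, as the SD across probe sets in total RNA, was 0.34 for both the vertical and the 2 min pool of repetition 2, within a range of 0.23 to 0.36 over the 6 pools of that season. In repetition 1 it was 0.31 for the vertical pool and 0.21 for the 2 min pool, the lowest of that season's range of 0.21 to 0.33. The plot of the seasons against each other shows dbf1 among the few points away from 0 on both axes.

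**Figure D4:**
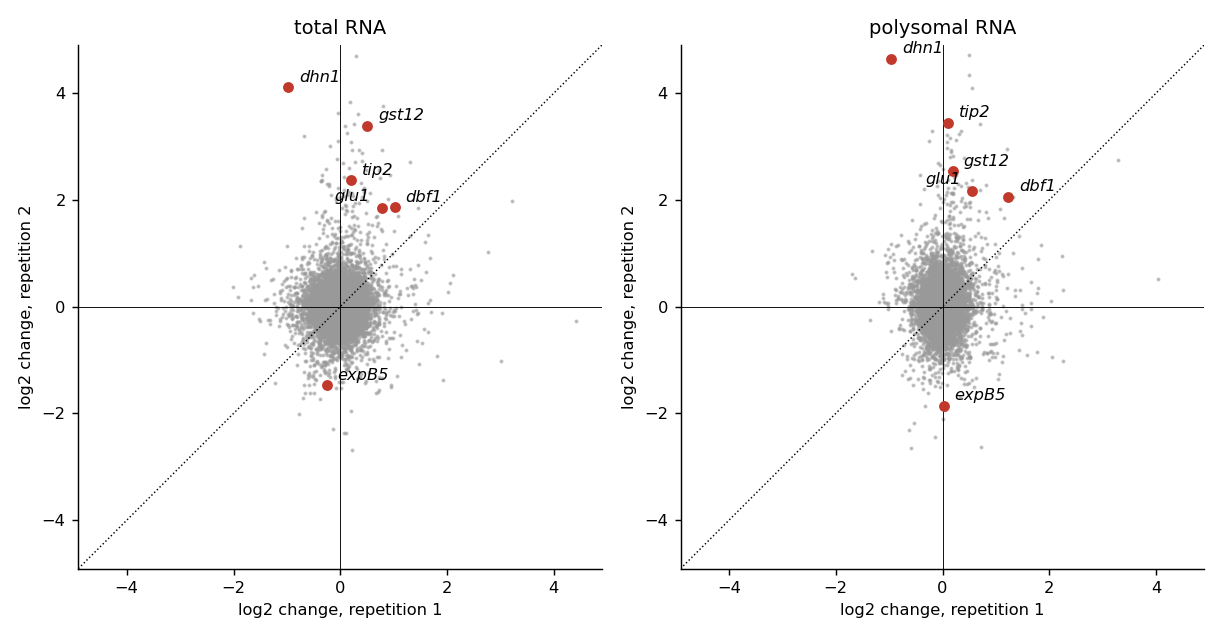
Log2 change at 2 min in repetition 1 (horizontal) and repetition 2 (vertical) for 10527 probe sets in total RNA (left) and polysomal RNA (right), with the dotted line of equal change. The cloud is taller than wide and follows neither diagonal (r = 0.07 and 0.05); dbf1 lies at 1.02 and 1.87 in total RNA, and dhn1 at -0.97 and 4.11.

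Upper and lower sides did not differ detectably at 2 min. Lower minus upper called 0 of 10527 probe sets by limma in total RNA (0%), with 525 at an unadjusted p under 0.05, 4.99%, and a smallest adjusted p of 0.435. In polysomal RNA it called 0 as well, with 177 at an unadjusted p under 0.05, 1.68%. As a measure of background, right minus left sides of vertical pulvini gave 2 calls in total RNA, 0.0190%, with 576 at an unadjusted p under 0.05. In polysomal RNA right minus left gave 0 calls, with 356 at an unadjusted p under 0.05. Across probe sets lower minus upper of repetition 1 correlated with that of repetition 2 at 0.13 in total RNA and -0.02 in polysomal RNA, beside 0.05 and 0.00 for right minus left. Among genes described above, lower minus upper in total RNA was -0.50 for expB5 (unadjusted p = 0.0228), 0.47 for acco20 (unadjusted p = 0.0383), -0.44 for dwarf3 (unadjusted p = 0.0864), -0.40 for tip2 (unadjusted p = 0.251) and 0.36 for gst12 (unadjusted p = 0.340). In polysomal RNA acco20 had 0.51 (unadjusted p = 0.0682).

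The later harvests place these early values in the course of the response, with the caution that every time point is set against the same vertical arrays and so shares their errors. Calls numbered 1, 2, 293, 113 and 34 at 2, 5, 15, 30 and 60 min in total RNA, the last 4 being 0.0190%, 2.78%, 1.07% and 0.323%. In polysomal RNA they numbered 0, 58, 399, 258 and 154, the last 4 being 0.551%, 3.79%, 2.45% and 1.46%. The seasons' agreement was highest at 15 min. At 5, 15, 30 and 60 min r was 0.0626, 0.462, 0.325 and 0.205 in total RNA. In polysomal RNA r was 0.272, 0.503, 0.331 and 0.249, so in total RNA 5 min was as low as 2 min. dbf1 stood at 1.44, 1.19, 1.74, 0.93 and 0.27 over the 5 times in total RNA, and at 1.64, 1.12, 1.82, 1.19 and 0.46 in polysomal RNA. TIP2-1 had 1.45 at 2 min in total RNA, from 0.89 in repetition 1 and 2.02 in repetition 2, and 0.66, 0.18, 0.58 and 0.30 later. The unnamed Zm.16838.2.A1_a_at had 1.65 at 2 min and 0.28, 0.17, 0.28 and 0.13 afterwards. Both were named for a small p at 2 min, which favours a high value at that time. That their largest value was the first is therefore not a separate result. dhn2 changed sign, with 1.10, -1.12, 1.38, 1.49 and 1.59 in total RNA.

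**Figure D5:**
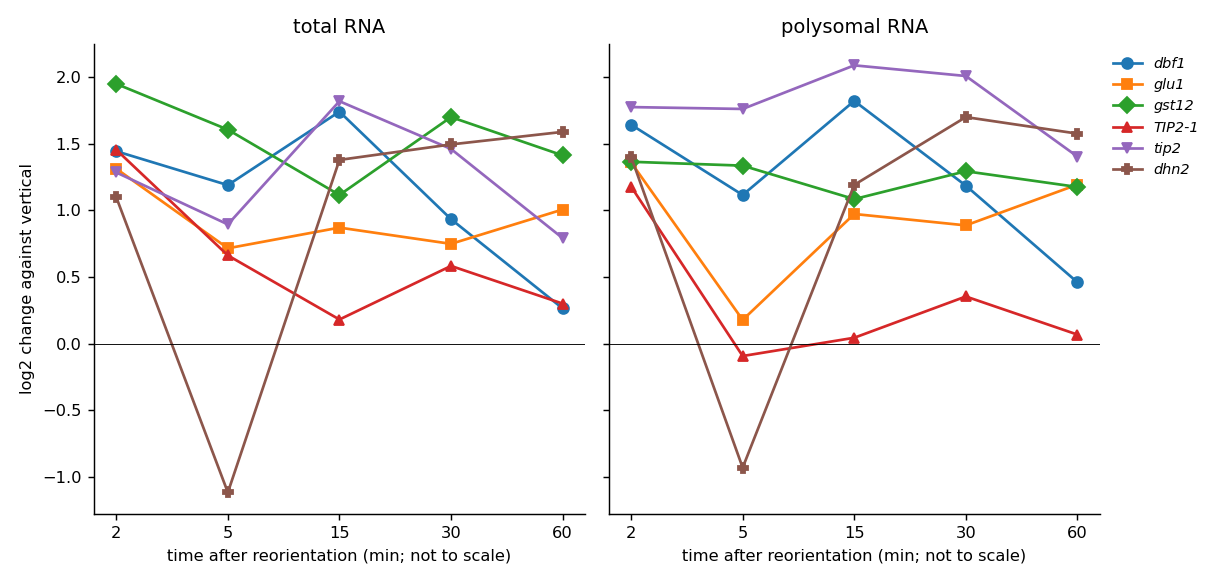
Fitted log2 change against vertical pulvini at 2, 5, 15, 30 and 60 min (axis not to scale) for 6 genes in total RNA (left) and polysomal RNA (right). All points of a gene share the same vertical arrays; dbf1 peaks at 15 min in both panels and dhn2 (1 of its probe sets) is below 0 only at 5 min.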

How the data were processed

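The values are the signal intensities that the authors deposited for the Affymetrix Maize Genome Array, 1 array per RNA sample, made with GCOS per the submitters' processing notes. The version and the scaling target are not given in the sources used here, but the mean without the highest and lowest 2% lay between 497.1 and 498.8 on the 16 arrays, so the deposited intensities had been scaled alike. They were used as log2(signal + 16), where 16 is the pseudocount, which damps changes of dim probe sets. Of 17545 probe sets, those under the 40th percentile of mean log2 value over all 48 arrays were left out, which kept 10527.

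Each RNA was fitted with limma 3.58.1 (R 4.3.3) over its 24 arrays, so that all time points share 1 estimate of the spread, with repetition as covariate and the plant pool as a random block (statmod 1.5.0). Sides of a pool had an estimated correlation of 0.575 (total RNA), 0.380 (polysomal RNA) and 0.195 (differences between the RNAs). P values were adjusted by Benjamini-Hochberg over all 10527, with moderated variances and a mean trend. "Passed" and "called" mean an adjusted p under 0.05, and a change is the mean of both 2 min sides minus that of both vertical sides. The season pairs the samples per the labels, and deviations of equally numbered samples correlated between 0.536 and 0.892 in total RNA and between 0.560 and 0.881 in polysomal RNA. The fit was tested on simulated data.

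Gene names came from the array's annotation table, matched to RefSeq (assembly Zm-B73-REFERENCE-NAM-5.0) by gene ID: 1452 probe sets had 1 gene, 1 had several and 16092 had none listed, and 1377 matched RefSeq. Named genes are, per RNA, every called probe set, the 15 smallest p among genes and the 3 smallest without a gene, the 5 smallest p for the difference, a fixed set of genes, and leaders of 22 gene lists. Listed genes whose arrays did not overlap in both RNAs were added after their values were seen, so for them the lack of overlap is the reason for choice. The members and lists were chosen with earlier results of these data known. Alternatives changed the block, the samples, the pseudocount, the filter, the normalization and the variance trend, and left out each array. The values of 1 gene that the rule names are not reported here.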

Additional observations from a re-analysis of the deposited data

Results flagged for a closer look

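For the genes named by their p or by choice, 212 sets of 4 arrays were tested for 1 array lying far from the other 3. Such an array was found in 4 sets. The test expects about 1 in 20 by chance if the 4 arrays are independent. Each set holds 2 sides of each of 2 plant pools, so that rate does not apply and the count cannot be set against it. In polysomal RNA the lower 2 min side of repetition 2 read 7.98 on the log2 scale for Zm.5417.1.A1_at, below the others at 8.24 to 8.27. The right vertical side of repetition 1 read 7.83 for TIP2-1 in polysomal RNA, above the others at 7.58 to 7.62. The left vertical side of repetition 1 read 7.82 for acco20 in polysomal RNA, below the others at 8.76 to 8.85. The upper 2 min side of repetition 1 read 10.53 for phb1 in polysomal RNA, above the others at 10.34 to 10.37.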

How the results depend on the processing

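Across the 5 counts of called probe sets, 85 of 91 alternative fits stayed within 1.5 times of the reported count. Without the plant pool block the calls became 7 in total RNA (dbf1 and glu1 among them) and 6 in polysomal RNA, where dbf1 then passed. With means of plant pools total RNA had 0 calls by limma and 746 at an unadjusted p under 0.05. Fewer values estimate the spread in that fit and in the fit of the 8 arrays alone. Whether this caused the loss of the dbf1 call was not tested. Leaving out 1 array gave 1 to 6 calls in total RNA and 0 to 2 in polysomal RNA. The 6 arose without the left vertical array of repetition 1, when por1 and 4 unnamed probe sets joined dbf1, and the 2 without either the left vertical or the lower 2 min array of repetition 1. With repetition dropped as a replicate block, total RNA still had 1 call, dbf1 (adjusted p = 0.0235), and no count moved by over 1.5 times. With the 8 arrays alone the count was also 1, but it was Zm.16838.2.A1_a_at in place of dbf1. Over 18 alternatives dbf1 passed in total RNA in 16, with log2 changes of 1.34 to 1.55. The upper polysomal 5 min array of repetition 1 belongs to the pool whose sides correlated least. Leaving it out changed none of the 3 counts it enters. The lower minus upper and polysomal minus total tests had 0 calls by limma in each alternative run, where means of pools were not run for lower minus upper. A lone remaining array of a group is assumed to vary like the other groups, and 2 pools a group limit the precision.

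For named genes, 47 of 2053 alternative values changed sign, none by more than 0.468 below or above 0 after the change. Quantile normalization turned 2 CDPK probe sets in polysomal RNA to -0.0091 and -0.023 and a crt2 set to 0.035. The other turns came from leaving out 1 array. In polysomal RNA the ranges were then -0.080 to 0.11 for CaM2, -0.084 to 0.092 and -0.081 to 0.16 for CDPK, -0.028 to 0.071 for CDPK2, and -0.074 to 0.15 and -0.13 to 0.12 for crt2. They were -0.088 to 0.35 for incw1, -0.47 to 0.68 for ivr2 and -0.073 to 0.054 for pDCT2. In total RNA they were -0.10 to 0.041 for CaM2, -0.11 to 0.024 for CDPK, -0.10 to 0.037 for crt2, -0.28 to 0.18 for dbf2, -0.084 to 0.16 for DBP1a, -0.20 to 0.61 for ivr2 and -0.016 to 0.067 for MCK1. For the other shifts the cause was not tested. Signal over background limits the dim probe sets, since up to 22.4% lay below 16.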
